A study of Homo sapiens with 15 samples.

Results

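The 31 genes described here encode the glucose transporters, the enzymes of glycolysis with lactate dehydrogenase, and the enzymes of the pentose phosphate pathway. They were chosen as a fixed list of symbols, with earlier results of these data known. The genes were matched to Ensembl identifiers through GENCODE 29 and make up 31 of the 58395 genes counted. Their RNA was measured by poly(A) RNA-seq in H1299, an established line of human non-small cell lung carcinoma that the labels place in lymph node. The cells were first grown in complete RPMI 1640 with fetal bovine serum and then kept for 12 h in RPMI 1640 free of serum. All 5 media therefore lacked serum, and they differed in what was added: glucose + NH4Cl medium held 5 mM glucose and 4 mM NH4Cl, glucose + glutamine medium held 5 mM glucose and 4 mM glutamine, glutamine-only medium held 4 mM glutamine, glucose-only medium held 5 mM glucose, and neither-nutrient medium held none of the 3. NH4Cl supplies ammonium without the carbon of glutamine. Each medium had 3 libraries, 15 in all, from a single cell line, and the labels give no culture day or batch, so p-values measure the spread between these libraries, which may be partly technical.

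Glucose enters cells through facilitative transporters of the SLC2A family and is trapped by hexokinase as glucose 6-phosphate. Glycolysis then splits the sugar, yields ATP at phosphoglycerate kinase and pyruvate kinase, and ends at pyruvate, which lactate dehydrogenase turns into lactate. The bifunctional PFKFB enzymes set the level of fructose 2,6-bisphosphate, the activator of phosphofructokinase. The pentose phosphate pathway takes glucose 6-phosphate to NADPH in its oxidative branch and to ribose 5-phosphate, the sugar of nucleotides, and its non-oxidative branch returns carbon to glycolysis. Many carcinoma cells run glucose to lactate at a high rate even with oxygen present, and glutamine is the other main carbon and nitrogen source of such cells in culture.

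Library totals ran between 14914127 and 19938691 counts, and 3 counts, taken as the floor of detection, corresponded to between 0.150 and 0.201 counts per 1000000 (CPM). Gene positions below are on GRCh38 from GENCODE 29. Levels below are CPM on library sizes scaled by edgeR's TMM factors. The neither-nutrient libraries stood apart: TMM factors were 1.006 to 1.085 in the other 12 libraries, against 0.793 to 0.794 in neither-nutrient medium, and the 10 most abundant genes took 5.54 to 7.09% of counts in the other 12, against 12.3 to 12.4%. Changes relative to neither-nutrient medium therefore depend on scaling. With library totals in place of TMM the median log2 change over all genes shifted by 0.44 in glucose-only and 0.35 in glutamine-only medium relative to neither-nutrient medium, by 0.10 for glucose + glutamine relative to glutamine-only medium and by -0.34 for the interaction of glucose with glutamine. The part of RNA composition in these results was not tested, and fewer cells and less RNA per cell cannot be told apart in bulk RNA. Of 6 genes listed to describe the carcinoma line, KRT8 and KRT18 were abundant, as was VIM, which is not an epithelial marker. EPCAM and CDH1 stayed under 1 CPM in every library, and KRT19 averaged between 1.09 and 1.59 CPM per medium. The summed markers of fibroblasts, endothelium and leukocytes reached at most 3.25, 1.81 and 1.64 CPM.

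Relative to all other counted RNA, the 31 genes together took their largest share in neither-nutrient medium. Their summed counts, which need no scaling between libraries, were 1.36 ± 0.0102% of all counts in glucose + NH4Cl, 1.63 ± 0.0111% in glucose + glutamine, 1.36 ± 0.0119% in glutamine-only, 1.28 ± 0.00488% in glucose-only and 1.81 ± 0.00494% in neither-nutrient medium (SD, n = 3 each). Per kilobase of exon the most abundant member was GAPDH, with 1180.0 ± 10.2 CPM per kb in glucose + NH4Cl, 1227 ± 16.6 in glucose + glutamine, 1269 ± 26 in glutamine-only, 1084 ± 7.46 in glucose-only and 1817 ± 18 in neither-nutrient medium. ENO1, LDHB, TPI1 and PKM followed it on this per-kilobase scale. The regulatory PFKFB4 and PFKFB2 were near the other end, with means of 1.08 and 2.33 CPM per kb over the 15 libraries. ALDOC, the brain-type aldolase, had between 0 and 16 counts per library and was the 1 member that did not pass the filter on low counts, so 30 members were tested.

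With TMM scaling, 22 of the 30 members had their highest mean in neither-nutrient medium, and in all 22 its 3 libraries lay above the libraries of the next medium. Of all 16889 genes tested, 30.7% had their highest mean there and 22.8% had it with the libraries apart. Glutamine-only medium held the highest mean of SLC2A1, HK2, PFKL, H6PD and PGLS, glucose + NH4Cl that of PFKFB2 and ENO2, glucose + glutamine that of PFKFB4, and glucose-only medium that of 0 members. Glucose-only medium held the lowest mean of 14 members, with its libraries apart from those of the next medium in 9. With library totals the number highest in neither-nutrient medium was 12, with 8 highest in glucose + glutamine, and the number lowest in glucose-only medium was again 14. The share of all genes was not counted for the lowest means or with library totals.

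**Figure D1:**
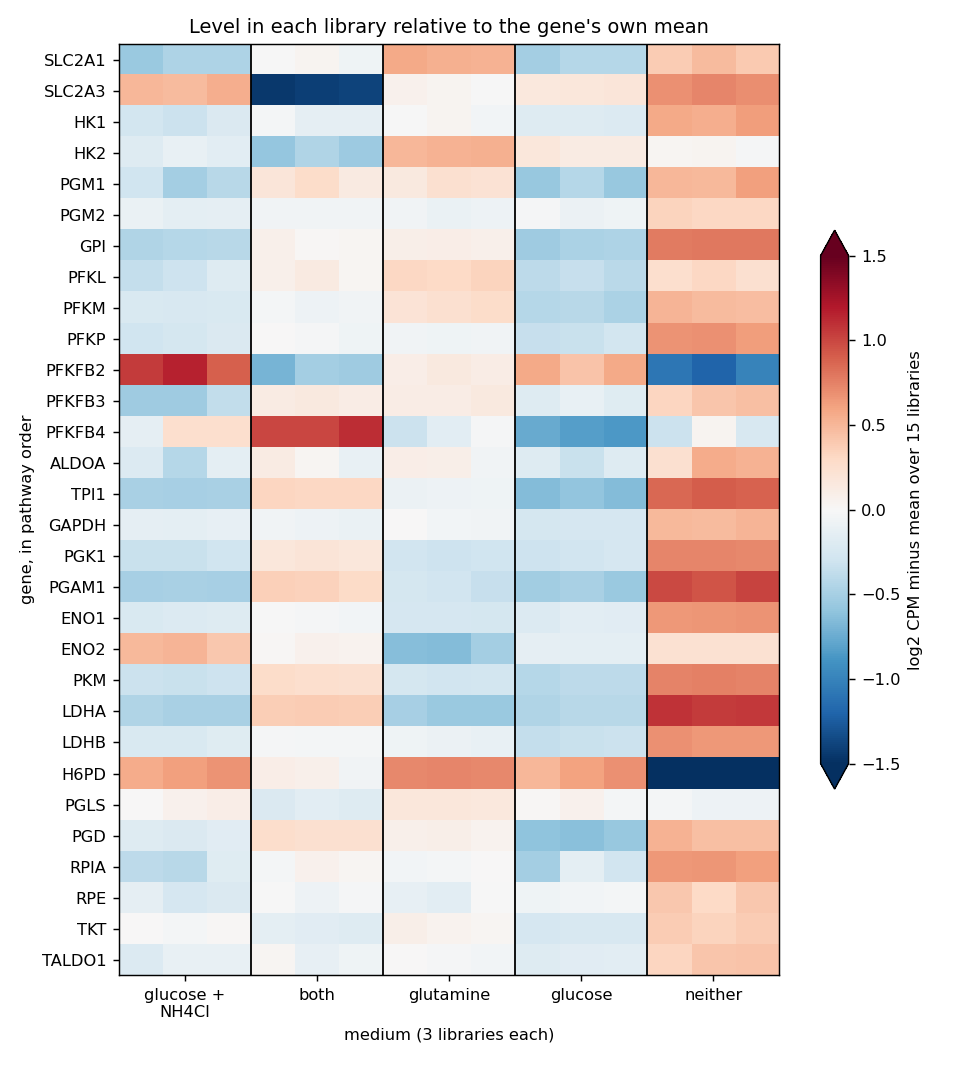
Level of the 30 tested members in each of the 15 libraries, as log2 CPM (TMM-scaled) minus the gene's mean over the libraries, with 3 columns per medium and genes in pathway order. Red is above and blue below the gene's own mean, and the scale stops at 1.5 on either side, which H6PD passes in neither-nutrient medium. Most rows are reddest in the 3 neither-nutrient columns, while PFKFB2 and H6PD are bluest there.

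The glucose transporters differed in how they followed the media. SLC2A3 had 158, 156 and 163 CPM in glucose + NH4Cl, 40.9, 41.8 and 42.9 in glucose + glutamine, 117, 115 and 111 in glutamine-only, 124, 126 and 127 in glucose-only and 180.3, 186 and 182 in neither-nutrient medium. SLC2A3 (ENSG00000059804, chr12:7919230-7936275 on the minus strand) encodes GLUT3, a transporter of high affinity for glucose best known from neurons. Its 5 media did not overlap, and glucose + glutamine medium lay far below all others: relative to glucose-only medium the log2 change was -1.58 ± 0.036 (SE), or 3.00-fold lower, with an adjusted p of 5.87e-98 by edgeR's quasi-likelihood test with Benjamini-Hochberg adjustment over 16889 genes, which holds for every adjusted p given below. NH4Cl in place of glutamine did not give that low level: glucose + NH4Cl medium lay above glucose-only medium (log2 change 0.34 ± 0.03) and above glucose + glutamine medium (log2 change 1.92 ± 0.035, or 3.79-fold higher).

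SLC2A1 had 52, 55.9 and 55.8 CPM in glucose + NH4Cl, 76.2, 79.1 and 73.7 in glucose + glutamine, 114, 111 and 110.2 in glutamine-only, 54.1, 57.3 and 57 in glucose-only and 100.0, 107 and 101 in neither-nutrient medium. SLC2A1 (ENSG00000117394, chr1:42925375-42959176 on the minus strand) encodes GLUT1, the transporter behind basal glucose uptake in most cells. With TMM scaling it was highest in the 2 media without glucose, and its libraries in glucose + NH4Cl and glucose-only medium overlapped. Adding glucose gave a log2 change of -0.55 ± 0.033 with glutamine present and -0.87 ± 0.037 without it, and glutamine in the presence of glucose gave 0.44 ± 0.038. With library totals the changes on adding glucose were -0.45 with glutamine and -0.43 without it. SLC2A1 and SLC2A3 thus moved in opposite directions when glutamine joined glucose. In glutamine-only against neither-nutrient medium SLC2A1 had a log2 change of 0.12 with an adjusted p of 0.000505 in the same test. That change was 0.47 with library totals, and its call was lost against a 1.2-fold change.

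Among the enzymes that make and share out glucose 6-phosphate, HK2 stood apart from HK1. HK2 had 73.8, 78 and 75.6 CPM in glucose + NH4Cl, 56.4, 61.6 and 57.5 in glucose + glutamine, 119, 121 and 122 in glutamine-only, 95, 92 and 92 in glucose-only and 85.6, 86.8 and 83.3 in neither-nutrient medium. HK2 (ENSG00000159399, chr2:74833981-74893359 on the plus strand) is the inducible, mitochondria-binding hexokinase of many tumours, and here its level was lowest in glucose + glutamine and highest in glutamine-only medium, with no overlap between media. Glucose added to glutamine lowered HK2 with a log2 change of -1.05 ± 0.034, or 2.06-fold lower. Glucose added without glutamine gave 0.13 ± 0.035, and 0.56 with library totals. The first of these missed the threshold when genes of low count were kept in the fit. Both glutamine and NH4Cl lowered HK2 relative to glucose-only medium, with log2 changes of -0.67 and -0.30.

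HK1 averaged 60.5 ± 2.31 CPM in glucose + NH4Cl, 68.2 ± 3.03 in glucose + glutamine, 72.8 ± 2.00 in glutamine-only, 63.8 ± 0.413 in glucose-only and 109 ± 3.28 in neither-nutrient medium (SD, n = 3 each). HK1, the hexokinase of most tissues, was higher in neither-nutrient medium than in the other 4, whose means lay close together. PGM1, which links glucose 6-phosphate to glycogen, was 2.07-fold lower in glucose-only than in neither-nutrient medium and 1.64-fold higher in glucose + glutamine than in glucose-only medium. PGM2, which acts mostly on pentose phosphates, was not called for glutamine on top of glucose (log2 change 0.01, adjusted p = 0.892 by edgeR), and its lower call in glucose-only against neither-nutrient medium (-0.37) became 0.06 with library totals.

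At the steps to fructose bisphosphate, the changes of GPI and of the 3 phosphofructokinase genes were graded. GPI had 314, 319 and 321 CPM in glucose + NH4Cl, 452, 434 and 439 in glucose + glutamine, 457, 461 and 450.4 in glutamine-only, 297, 309 and 311 in glucose-only and 737, 742 and 742 in neither-nutrient medium. GPI (ENSG00000105220, chr19:34359480-34402413 on the plus strand) isomerizes glucose 6-phosphate, and its glucose-only libraries lay below all others, with a log2 change of -1.28 ± 0.021 relative to neither-nutrient medium. PFKP, PFKM and PFKL, named for platelet, muscle and liver, had log2 changes of -0.98, -0.92 and -0.65 for glucose-only against neither-nutrient medium. For glutamine-only against neither-nutrient medium the same genes had -0.72, -0.24 and 0.05, where PFKL was not called (adjusted p = 0.17 by edgeR). With library totals PFKM became 0.10 and PFKL 0.39 there, and both were called higher. All 3 phosphofructokinase genes were higher in glucose + glutamine than in glucose-only medium, by log2 changes of 0.29, 0.39 and 0.46.

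The PFKFB genes went apart from each other. PFKFB2 had 43, 46.2 and 38.8 CPM in glucose + NH4Cl, 12.9, 14.6 and 14.4 in glucose + glutamine, 22.3, 23 and 22.4 in glutamine-only, 30.8, 28 and 31 in glucose-only and 9.85, 9.07 and 10.4 in neither-nutrient medium. PFKFB2 (ENSG00000123836, chr1:207034366-207081024 on the plus strand), known as the heart form, was lowest in neither-nutrient medium and highest in glucose + NH4Cl, with no overlap between any media. Its log2 change was 1.61 ± 0.079 for glucose-only against neither-nutrient medium and -1.1 ± 0.068 for glucose + glutamine against glucose-only medium. Glucose + NH4Cl medium exceeded glucose + glutamine medium by 1.61 ± 0.065, or 3.06-fold. The exons of PFKFB2 overlap those of YOD1, which had 76 to 228 counts per library on the opposite strand, by 315 bases, and the labels do not say whether counting used strand.

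PFKFB4 had 5.47, 7.18 and 7.15 CPM in glucose + NH4Cl, 12.1, 12 and 13 in glucose + glutamine, 4.82, 5.38 and 5.96 in glutamine-only, 3.56, 3.39 and 3.30 in glucose-only and 4.82, 6.18 and 5.12 in neither-nutrient medium. PFKFB4 (ENSG00000114268, chr3:48517684-48562015 on the minus strand), first described in testis and raised in several tumours, was highest in glucose + glutamine medium, where every library exceeded those of the other 4 media. Relative to glucose-only medium the log2 change was 1.85 ± 0.12 with glutamine (3.61-fold higher, adjusted p = 1.4e-33 by edgeR) and 0.95 ± 0.14 with NH4Cl. Its glutamine-only and neither-nutrient libraries overlapped (log2 change 0.01, adjusted p = 0.949 by edgeR). With library totals that change was 0.35 and was called higher (adjusted p = 0.0147 by edgeR). PFKFB4 was the least abundant of the tested members, so its standard errors are the widest. Its exons share 289 bases with UCN2 on the same strand, which had between 0 and 8 counts per library.

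PFKFB3 averaged 26.9 ± 1.79 CPM in glucose + NH4Cl, 40.8 ± 0.546 in glucose + glutamine, 40.7 ± 0.559 in glutamine-only, 33.4 ± 1.15 in glucose-only and 49.4 ± 2.19 in neither-nutrient medium (SD, n = 3 each). PFKFB3, the form with the highest kinase relative to phosphatase activity, was lowest in glucose + NH4Cl medium, with a log2 change of -0.31 ± 0.056 relative to glucose-only and -0.60 ± 0.054 relative to glucose + glutamine medium. Its change for glucose + glutamine against glutamine-only medium was 0.00 (adjusted p = 0.961 by edgeR). In glutamine-only against neither-nutrient medium PFKFB3 had -0.27, and 0.07 with library totals.

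**Figure D2:**
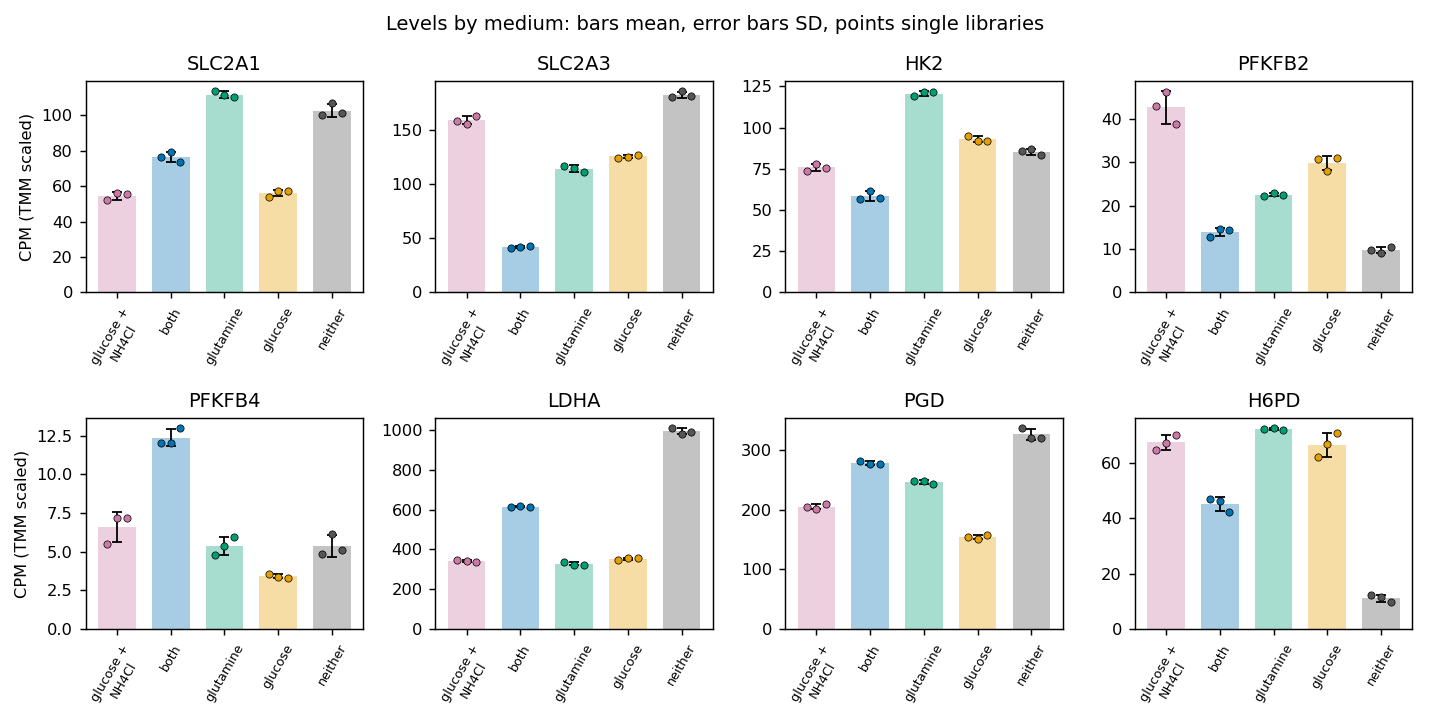
CPM (TMM-scaled) of 8 members in the 5 media, with bars for the mean, error bars for the SD and points for the 3 libraries of each medium; each panel has its own axis from 0. SLC2A3 is lowest and PFKFB4 highest in glucose + glutamine medium, LDHA and PGD are highest in neither-nutrient medium, and H6PD is lowest there.

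From aldolase to lactate, TPI1, PGK1, PGAM1, ENO1, PKM, LDHA and LDHB shared an order of media with TMM scaling: neither-nutrient highest, glucose + glutamine next, and the other 3 below. TPI1 had 539, 537 and 542 CPM in glucose + NH4Cl, 947, 938 and 937 in glucose + glutamine, 715, 717 and 724 in glutamine-only, 482, 500.5 and 481 in glucose-only and 1380.0, 1416 and 1397 in neither-nutrient medium. TPI1 (ENSG00000111669, chr12:6867119-6870948 on the plus strand) interconverts the triose phosphates, and its 5 media did not overlap. Its log2 change was -1.52 ± 0.019 for glucose-only against neither-nutrient medium, or 2.87-fold lower, and 0.95 ± 0.019 for glucose + glutamine against glucose-only medium. ALDOA, aldolase, had between 11.1 and 22.0 CPM in the 15 libraries. That value is uncertain, since 1657 of the 3916 exon bases of ALDOA are shared with another gene on the same strand, AC093512.2, and reads there may not be assigned to either.

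PGAM1 had 200.5, 202 and 201 CPM in glucose + NH4Cl, 362, 359 and 345 in glucose + glutamine, 236, 232 and 223 in glutamine-only, 197, 203 and 192 in glucose-only and 562, 546 and 569 in neither-nutrient medium. PGAM1 (ENSG00000171314, chr10:97426160-97433441 on the plus strand) is the phosphoglycerate mutase of most tissues, and its libraries in glucose + NH4Cl and glucose-only medium overlapped. The log2 change was 0.62 ± 0.024 for glucose added with glutamine and -1.5 ± 0.024 for glucose added without it. PGAM4, a near-identical copy, can share its reads and had similar directions, with 0.60 and -1.62 in the same comparisons. The 13 pseudogenes named after PGAM1 held between 0.158 and 1.44% as many counts as PGAM1. For GAPDH, with 62, for TPI1, with 4, and for LDHA, with 6, such pseudogenes held 0.638 to 0.835%, 1.75 to 3.02% and 1.03 to 1.37% of the parent's counts.

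PGK1 had 448, 449 and 459 CPM in glucose + NH4Cl, 635, 644 and 636 in glucose + glutamine, 465, 457 and 461 in glutamine-only, 456, 463 and 474 in glucose-only and 939, 941 and 936 in neither-nutrient medium. PGK1 (ENSG00000102144, chrX:77910739-78129296 on the plus strand) makes the first ATP of the pathway, and it was higher in neither-nutrient medium than in glucose + glutamine, with the other 3 media lower and close together. Its log2 changes for glucose were 0.47 ± 0.02 with glutamine and -1.02 ± 0.02 without it. GAPDH, which oxidizes glyceraldehyde 3-phosphate, had -0.05 with glutamine and -0.75 without it, and the first of these became 0.05 with library totals.

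PKM averaged 1554 ± 13.8 CPM in glucose + NH4Cl, 2317 ± 30.3 in glucose + glutamine, 1609 ± 13.4 in glutamine-only, 1466 ± 22.8 in glucose-only and 3263 ± 8.58 in neither-nutrient medium (SD, n = 3 each). PKM, pyruvate kinase, makes the last ATP of glycolysis, and gene counts do not separate its splice forms. Its log2 change was 0.53 ± 0.015 for glucose added with glutamine and -1.15 ± 0.016 for glucose added without it. ENO1 averaged 2600.0 ± 32 CPM in glucose + NH4Cl, 2956 ± 41 in glucose + glutamine, 2509 ± 9.37 in glutamine-only, 2659 ± 53.1 in glucose-only and 4747 ± 34.6 in neither-nutrient medium. ENO1, the common enolase, had 0.24 ± 0.014 and -0.84 ± 0.015 in the same comparisons, and like PKM it was highest in neither-nutrient medium.

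ENO2 had 42.3, 43.1 and 40.2 CPM in glucose + NH4Cl, 30.7, 31.5 and 31.4 in glucose + glutamine, 19.5, 19.3 and 21.4 in glutamine-only, 27.5, 27.3 and 27.4 in glucose-only and 35.4, 35.3 and 35.6 in neither-nutrient medium. ENO2 (ENSG00000111674, chr12:6913745-6923698 on the plus strand), the neuronal enolase, followed another order than ENO1: it was highest in glucose + NH4Cl and lowest in glutamine-only medium, with no overlap. Its log2 change was 0.61 ± 0.054 for NH4Cl added to glucose, 0.19 ± 0.056 for glutamine added to glucose and 0.64 ± 0.059 for glucose added to glutamine. The change of -0.37 in glucose-only against neither-nutrient medium became 0.07 with library totals.

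LDHA had 348, 340.1 and 339 CPM in glucose + NH4Cl, 613, 619.7 and 613 in glucose + glutamine, 336, 324 and 324 in glutamine-only, 347, 357 and 355 in glucose-only and 1010.0, 980.1 and 991 in neither-nutrient medium. LDHA (ENSG00000134333, chr11:18394388-18408425 on the plus strand), the lactate dehydrogenase form that favours making lactate, was highest in neither-nutrient and next in glucose + glutamine medium, and its glucose + NH4Cl and glucose-only libraries overlapped. Glucose added with glutamine raised LDHA by a log2 change of 0.91 ± 0.021, or 1.88-fold higher, with an adjusted p of 2.17e-97 by edgeR. Glucose added without glutamine gave -1.49 ± 0.021, or 2.82-fold lower, and -1.06 with library totals. LDHB, the other subunit, had 0.06 with glutamine and -1.0 without it. NH4Cl added to glucose gave LDHA a log2 change of -0.04 (adjusted p = 0.111 by edgeR), against 0.80 for glutamine added to glucose.

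RefSeq windows of 300 bases around the transcription start (GRCh38.p14, 250 bases before it and 50 after) are printed for 3 glycolytic genes whose levels were higher with glucose when glutamine was present, and for PFKFB4, the member with the largest such change. They were chosen with their letters known and do not stand for the pathway: the windows of PGAM1, PKM and ENO1, also higher there, held 0 matches to the motif below, as did a second window of LDHA. Capitals mark ACGTG on either strand, the core that HIF factors bind and a part of the E-box CACGTG bound by MYC and related factors. LDHA at chr11:18394313-18394612 (+) held it at 3 places, 2 of them CACGTG, and PGK1 at chrX:78103998-78104297 (+) held 3. ENO2 at chr12:6914330-6914629 (+) held 1 and PFKFB4 at chr3:48556754-48557053 (-) held 0.
LDHA: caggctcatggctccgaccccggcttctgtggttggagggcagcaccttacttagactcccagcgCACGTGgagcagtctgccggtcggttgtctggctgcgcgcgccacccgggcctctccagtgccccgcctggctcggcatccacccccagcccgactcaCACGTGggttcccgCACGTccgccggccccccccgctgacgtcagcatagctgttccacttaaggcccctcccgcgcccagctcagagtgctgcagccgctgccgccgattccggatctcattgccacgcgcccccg
PGK1: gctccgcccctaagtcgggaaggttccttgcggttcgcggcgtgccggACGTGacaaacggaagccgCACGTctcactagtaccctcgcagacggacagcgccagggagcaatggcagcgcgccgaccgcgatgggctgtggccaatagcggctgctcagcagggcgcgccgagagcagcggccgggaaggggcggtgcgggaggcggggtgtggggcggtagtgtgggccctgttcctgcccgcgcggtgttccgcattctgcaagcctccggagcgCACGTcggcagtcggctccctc
ENO2: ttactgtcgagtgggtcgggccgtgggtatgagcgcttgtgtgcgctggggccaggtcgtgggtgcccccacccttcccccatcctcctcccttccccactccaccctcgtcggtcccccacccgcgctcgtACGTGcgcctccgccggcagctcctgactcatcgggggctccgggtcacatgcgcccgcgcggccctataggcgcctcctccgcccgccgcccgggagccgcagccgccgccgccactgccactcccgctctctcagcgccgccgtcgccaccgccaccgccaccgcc
PFKFB4: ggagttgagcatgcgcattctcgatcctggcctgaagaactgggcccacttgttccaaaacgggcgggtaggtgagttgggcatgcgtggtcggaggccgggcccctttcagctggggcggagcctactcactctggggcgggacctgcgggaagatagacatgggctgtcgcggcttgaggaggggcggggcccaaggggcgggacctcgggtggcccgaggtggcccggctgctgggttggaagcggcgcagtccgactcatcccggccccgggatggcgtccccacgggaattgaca

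Such windows were found for 29 of the 31 members, 52 windows in all. ACGTG on either strand was in 19 of the 52, or 36.5%, against 21.4% of all 35116 windows in the table, and CACGTG, which contains it, in 7 of 52, or 13.5%, against 7.26%. The C/EBP-ATF response element TGATGNAAN, to which ATF4 binds under amino acid shortage, was in 2 of 52, or 3.85%, against 3.61%. Both windows belonged to HK1, so 1 of the 29 members held it. The carbohydrate response element of ChREBP, as a pair of exact E-boxes, was in 0 of 52, against 0.0057%, and the endoplasmic reticulum stress element in 0, against 0.0769%. A match is a description of these letters, windows of alternative starts of 1 gene overlap, and binding was not measured.

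In the pentose phosphate pathway, H6PD ran against nearly all other members. H6PD had 64.8, 67.5 and 70.3 CPM in glucose + NH4Cl, 47, 46.2 and 42.5 in glucose + glutamine, 72.5, 72.7 and 72.1 in glutamine-only, 62.1, 66.8 and 70.7 in glucose-only and 12.3, 11.5 and 9.69 in neither-nutrient medium. H6PD (ENSG00000049239, chr1:9234775-9271337 on the plus strand) starts the pathway inside the endoplasmic reticulum, where it makes NADPH. It was lowest in neither-nutrient medium by a wide gap, and its glucose + NH4Cl and glucose-only libraries overlapped. Relative to neither-nutrient medium, the log2 change was 2.69 ± 0.062 in glutamine-only and 2.56 ± 0.063 in glucose-only medium, or 6.45-fold higher and 5.92-fold higher. In glucose + glutamine medium H6PD was below either nutrient alone, with -0.68 ± 0.043 relative to glutamine-only and -0.56 ± 0.044 relative to glucose-only medium.

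PGD had 205, 202 and 209 CPM in glucose + NH4Cl, 282, 277 and 276 in glucose + glutamine, 248, 248 and 243 in glutamine-only, 154, 151 and 158 in glucose-only and 337, 321 and 320.1 in neither-nutrient medium. PGD (ENSG00000142657, chr1:10398592-10420144 on the plus strand) makes the second NADPH of the cytosolic oxidative branch, and its 5 media did not overlap. Glutamine added to glucose gave PGD a log2 change of 0.85 ± 0.026 and NH4Cl added to glucose 0.41 ± 0.027, both called higher. PGLS, the lactonase between the dehydrogenases, moved least of the members with TMM scaling. Its changes then ran between -0.36 for glucose + glutamine against glutamine-only and 0.25 for glucose + NH4Cl against glucose + glutamine medium. Glucose-only against neither-nutrient medium gave PGLS 0.08 (adjusted p = 0.152 by edgeR). With library totals PGLS had 0.51 there, which was called higher, and 0.57 for glutamine-only against neither-nutrient medium.

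In the non-oxidative branch TKT, TALDO1, RPIA and RPE were all highest in neither-nutrient medium with TMM scaling. TKT averaged 337 ± 6.37 CPM in glucose + NH4Cl, 299.5 ± 4.47 in glucose + glutamine, 351 ± 8.49 in glutamine-only, 285 ± 2.11 in glucose-only and 435 ± 7.28 in neither-nutrient medium (SD, n = 3 each). TKT, transketolase, was called in all 6 comparisons of media, and its log2 change of -0.31 for glutamine-only against neither-nutrient medium became 0.03 with library totals. TALDO1, transaldolase, had -0.56 for glucose-only against neither-nutrient medium and between -0.09 and 0.12 in the 4 comparisons among media with a nutrient on both sides. RPIA and RPE, which interconvert the pentose phosphates, had -0.95 and -0.42 for glucose-only against neither-nutrient medium, where RPE became 0.02 with library totals. Neither was called for glucose added with glutamine, with adjusted p-values of 0.541 and 0.106 by edgeR. With library totals RPIA and RPE were called higher there, at 0.14 and 0.16.

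The effect of glucose depended on glutamine. Without glutamine, 3 of the 30 members were called higher in glucose-only than in neither-nutrient medium and 26 lower at an adjusted p under 0.05 (edgeR), beside 39.9% higher and 37.9% lower among all 16889 genes tested, or 29 members beside 77.8% of genes in either direction. At a change of at least 1.5-fold, 2 were higher and 20 lower, beside 27.4% and 22.2% of all genes. The members called higher were H6PD, PFKFB2 and HK2, and the lowest changes were -1.52 for TPI1, -1.5 for PGAM1 and -1.49 for LDHA, followed by GPI, PKM (-1.15) and PGD (-1.08). The members' median log2 change was -0.76, against 0.05 over all genes. With library totals 22 members were lower, 4 were higher, and 7 were at least 1.5-fold lower. The median was then -0.33 over the members and 0.485 over all genes. The share of all genes called was not counted with library totals, here or below.

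With glutamine present, 10 members were called higher in glucose + glutamine than in glutamine-only medium and 12 lower, beside 32.6% and 33% of all genes, or 22 beside 65.6% in either direction. At 1.5-fold or more, 4 were higher and 4 lower, beside 13.3% and 11.4%. Those with the largest higher changes were PFKFB4 (1.2), LDHA (0.91), ENO2, PGAM1, PKM (0.53) and PGK1. Those with the largest lower changes were SLC2A3 (-1.45), HK2, PFKFB2 (-0.69), H6PD, SLC2A1 and PGLS. The median was 0 over the members and -0.01 over all genes.

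The interaction term, which is the log2 effect of glucose with glutamine minus that without it, was called for all 30 members, positive in 25 and negative in 5, beside 36.8% positive, 38% negative and 74.8% called among all genes. At 1.5-fold or more it was positive in 18 and negative in 4, beside 25.1% and 28.4%. It was largest for LDHA (2.4 ± 0.029), PGAM1 (2.13), TPI1 (1.91), PFKFB4 (1.84), PKM (1.68) and PGK1 (1.49). It was negative for H6PD (-3.25 ± 0.078), PFKFB2 (-2.31), HK2 (-1.17), SLC2A3 (-0.91) and PGLS (-0.43). With library totals the term was called positive in 21 members and negative in 5. SLC2A1 was positive with TMM scaling (0.32) and negative, though not called, with library totals (-0.02). PGM2, PFKL and TKT, called positive with TMM scaling, had 0.06, 0.08 and 0.04 with library totals and were not called.

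**Figure D3:**
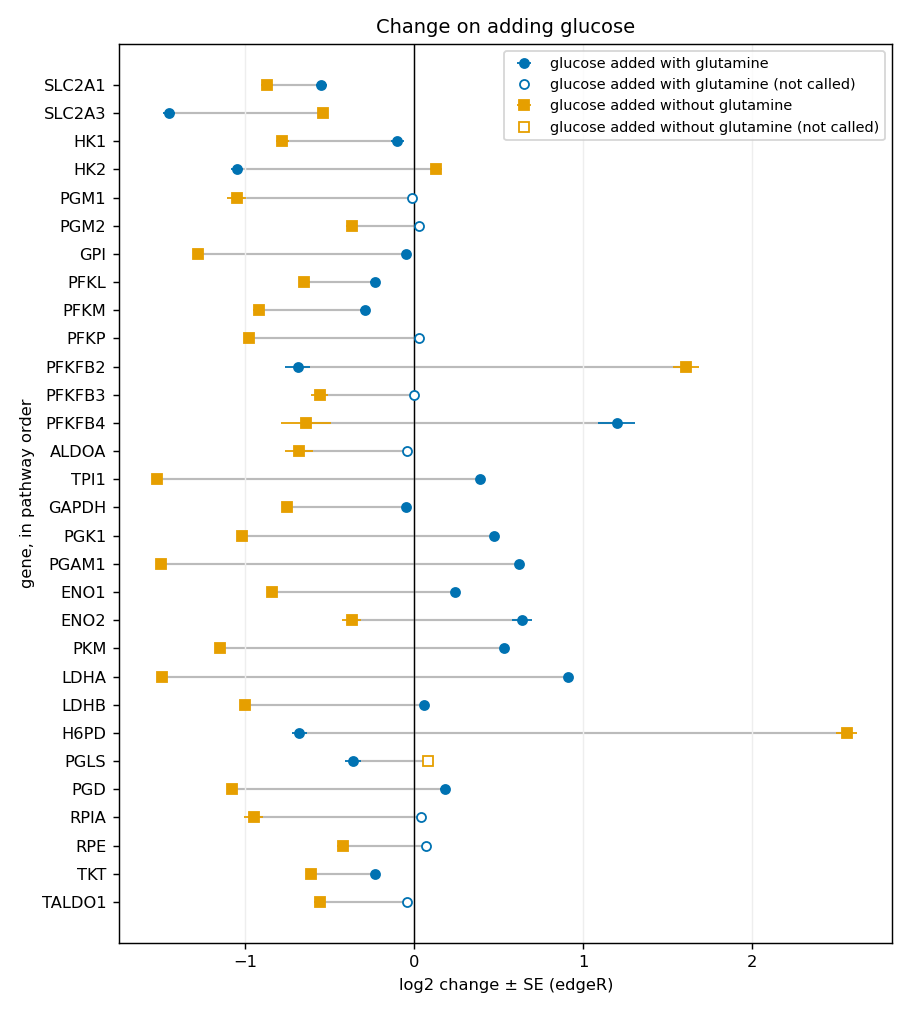
log2 change on adding glucose with glutamine present (circles, glucose + glutamine against glutamine-only medium) and without it (squares, glucose-only against neither-nutrient medium) for the 30 tested members, with bars for the SE from edgeR; open symbols did not pass the adjusted p of 0.05. For 25 members the circle lies to the right of the square, and for H6PD, PFKFB2, HK2, SLC2A3 and PGLS to its left.

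Glutamine alone, against neither nutrient, gave 5 members called higher and 23 lower, beside 37% and 35.8% of all genes, or 28 beside 72.8% in either direction. At 1.5-fold or more these were 2 and 12, beside 22.8% and 16.8%. H6PD, PFKFB2 (1.21), HK2 (0.50), PGLS (0.23) and SLC2A1 were the 5 called higher. LDHA (-1.6 ± 0.021), PGAM1 (-1.28), PGK1 (-1.03), PKM (-1.02), TPI1 (-0.96) and ENO1 (-0.92) had the largest lower changes. The median was -0.44 over the members and 0.02 over all genes. With library totals 8 members were higher, 16 lower and 5 at least 1.5-fold lower, with a median of -0.09 over the members and 0.367 over all genes. This comparison shares its neither-nutrient libraries with that of glucose-only medium.

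Glutamine added to glucose gave 23 members called higher and 5 lower, beside 34.2% and 33.7% of all genes, or 28 beside 67.9% in either direction, and 7 and 3 at 1.5-fold or more, beside 14.9% and 14.8%. Higher members were spread over the pathways: PFKFB4, TPI1, PGD, PGAM1 (0.85 ± 0.024), LDHA (0.80 ± 0.021) and PGM1 (0.72 ± 0.056) led. The 5 lower were SLC2A3, PFKFB2, HK2, H6PD and PGLS (-0.21). PGM2 and RPE were not called, the second with an adjusted p of 0.806 by edgeR. The median was 0.29 over the members and 0 over all genes.

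NH4Cl added to glucose gave 13 members called higher and 3 lower, beside 12.7% and 16.9% of all genes, or 16 beside 29.6% in either direction. Only PFKFB4 and ENO2 passed 1.5-fold among the higher ones and 0 among the lower, beside 1.17% and 0.9%. PFKFB2 (0.51 ± 0.056), PGD, SLC2A3 and TKT (0.24) had the next largest higher changes, and PFKFB3, HK2 and RPE (-0.16) were the 3 lower. When the test asked for more than a 1.2-fold change, 5 were called higher and 0 lower. The other 14 members were not called, among them LDHA, PGAM1, PGK1, ENO1 and H6PD, and the libraries of the 2 media were apart in 17 of the 30, beside 39.9% of all genes. The median was 0.05 over the members and -0.01 over all genes.

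Set directly against glutamine as the addition to glucose, NH4Cl gave 7 members called higher in glucose + NH4Cl than in glucose + glutamine medium and 23 lower, beside 31.2% and 33.4% of all genes, or all 30 beside 64.6% in either direction. At 1.5-fold or more 2 were higher and 6 lower, beside 12% and 12.5%. The leading higher changes were those of SLC2A3, PFKFB2, H6PD (0.58), ENO2 (0.43), HK2 (0.38) and PGLS. The largest lower changes were those of PFKFB4 (-0.90), LDHA (-0.84 ± 0.021), PGAM1 (-0.82), TPI1 (-0.80), PGM1 (-0.61) and PFKFB3. The median was -0.21 over the members and -0.01 over all genes. Both additions were set against the same glucose-only libraries above, whereas this comparison does not use them.

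**Figure D4:**
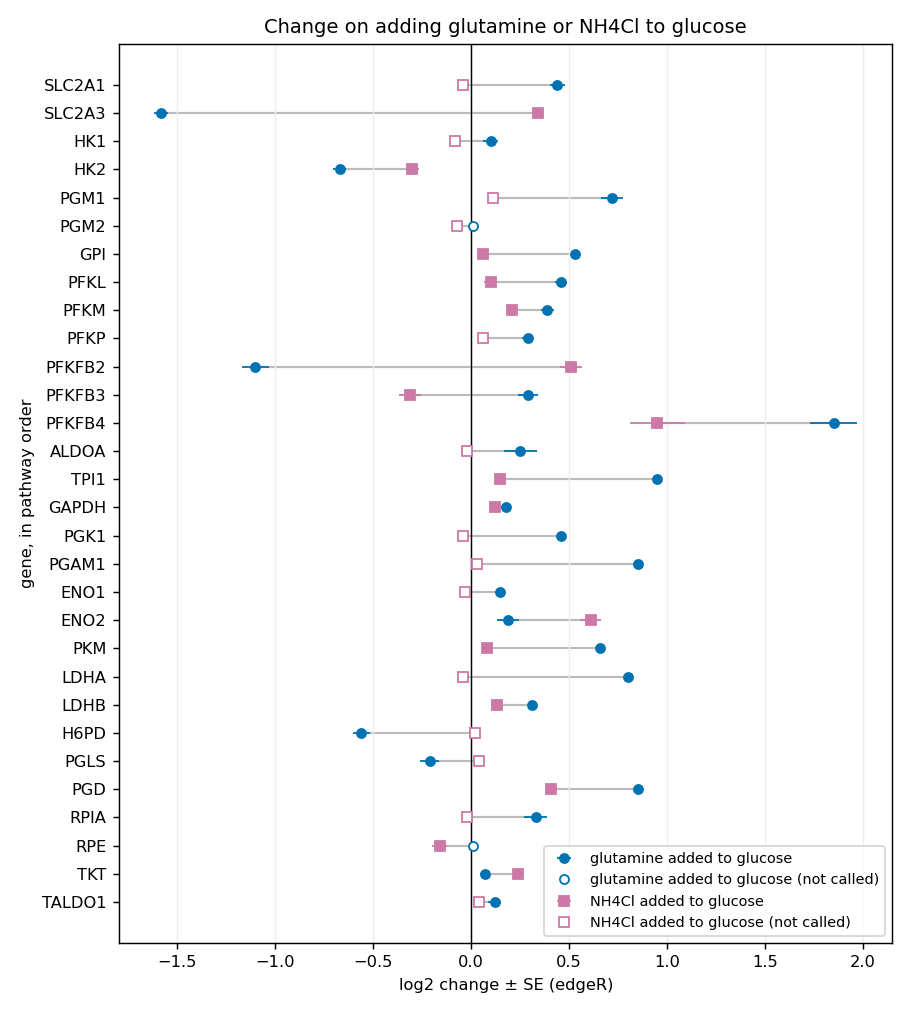
log2 change on adding glutamine (circles, glucose + glutamine against glucose-only medium) or NH4Cl (squares, glucose + NH4Cl against glucose-only medium) for the 30 tested members, with bars for the SE from edgeR and open symbols for an adjusted p of 0.05 or more. SLC2A3 and PFKFB2 lie left of 0 for glutamine and right of it for NH4Cl, PFKFB4 lies right of 0 for both, and most squares lie close to 0.

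The make-up of steps that have several isoenzymes shifted with the medium. Shares were taken as counts per kilobase of exon over the sum for the step, so they need no scaling between libraries. SLC2A3 made up 69.1 ± 0.938% in glucose + NH4Cl, 29.6 ± 1.07% in glucose + glutamine, 44 ± 0.333% in glutamine-only, 63.2 ± 0.590% in glucose-only and 57.7 ± 0.477% in neither-nutrient medium of the 2 transporters (SD, n = 3 each). Its share was thus lowest where both nutrients were present and highest with glucose and NH4Cl. HK2 made up 56.6 ± 1.41% in glucose + NH4Cl, 47.1 ± 2.05% in glucose + glutamine, 63.2 ± 0.704% in glutamine-only, 60.2 ± 0.351% in glucose-only and 44.8 ± 1.26% in neither-nutrient medium of the hexokinases HK1 and HK2. It exceeded HK1 on this scale in the 3 media with a single nutrient or NH4Cl, and HK1 exceeded it in the other 2.

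PFKFB3 made up 45.5 ± 3.08% in glucose + NH4Cl, 66.3 ± 1.12% in glucose + glutamine, 68.3 ± 0.537% in glutamine-only, 61 ± 1.94% in glucose-only and 81.5 ± 0.383% in neither-nutrient medium of the 3 PFKFB genes. PFKFB2 took 43.3 ± 3.58% in glucose + NH4Cl, 13.6 ± 0.718% in glucose + glutamine, 22.7 ± 0.495% in glutamine-only, 32.7 ± 1.88% in glucose-only and 9.68 ± 0.736% in neither-nutrient medium. It thus came close to PFKFB3 in glucose + NH4Cl medium on the per-kilobase scale. That rank depends on length, since by counts without length PFKFB2 took 55.98% there and PFKFB3 35.37%. PFKFB4 took 11.2 ± 1.35% in glucose + NH4Cl, 20.1 ± 0.842% in glucose + glutamine, 9.03 ± 0.787% in glutamine-only, 6.25 ± 0.254% in glucose-only and 8.87 ± 1.03% in neither-nutrient medium, its highest share where both nutrients were present. PFKP stayed the largest of the phosphofructokinases, between 48.5% in glutamine-only and 58.9% in neither-nutrient medium.

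LDHB made up 88.2 ± 0.268% in glucose + NH4Cl, 82.6 ± 0.151% in glucose + glutamine, 89.5 ± 0.0835% in glutamine-only, 87 ± 0.0916% in glucose-only and 82.6 ± 0.109% in neither-nutrient medium of LDHA and LDHB. The difference was -6.95 percentage points for glucose + glutamine against glutamine-only and 4.35 for glucose-only against neither-nutrient medium. ENO2 averaged at most 1.95% of ENO1 and ENO2, in glucose + NH4Cl medium. Over 12 shares and 6 comparisons, the libraries of the media did not overlap in 57 of 72, and the two-sided exact permutation p of each of those was 0.1, the smallest that 3 libraries against 3 allow, so none can pass 0.05.

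**Figure D5:**
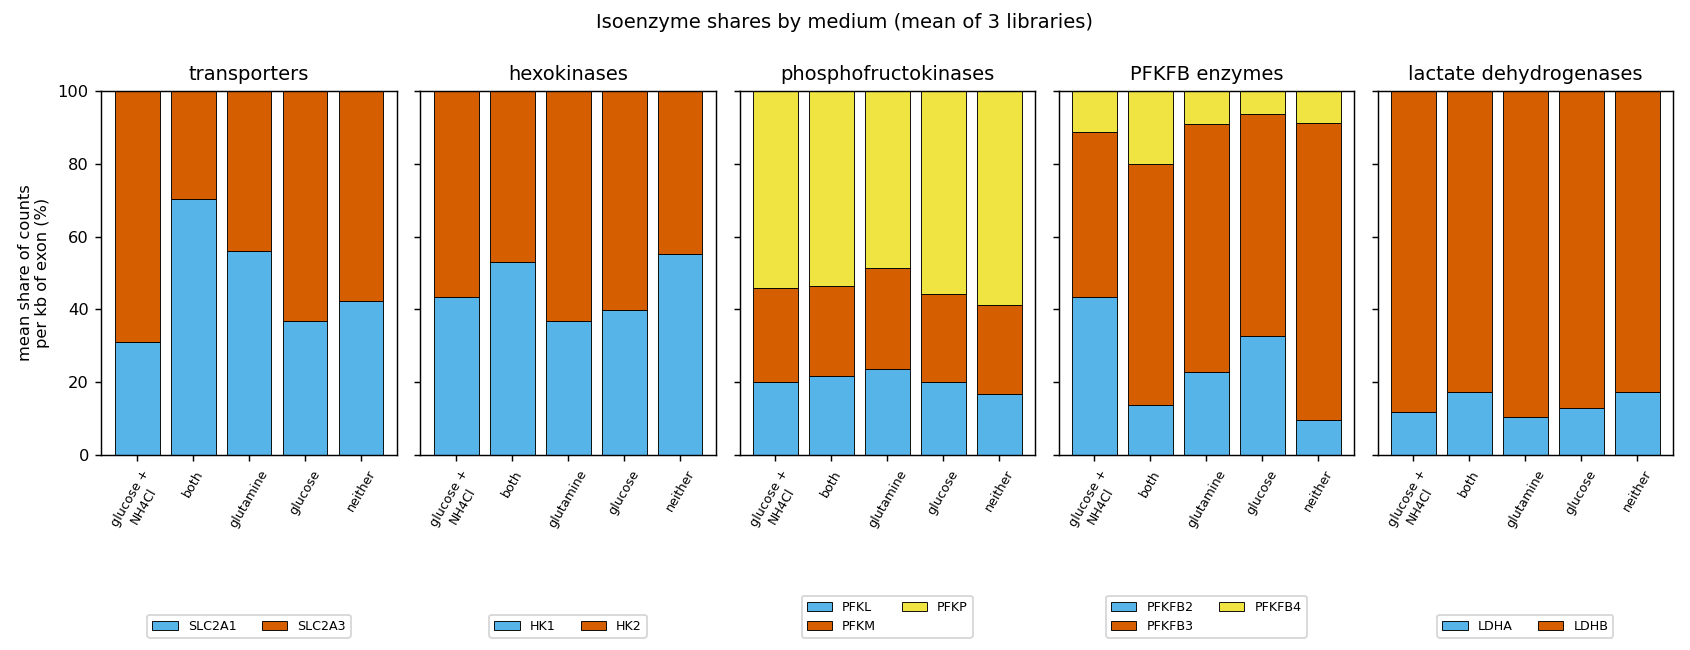
Mean share of each isoenzyme in its step, in % of counts per kilobase of exon over 3 libraries, for the 5 media. SLC2A3 falls below SLC2A1 in glucose + glutamine and glutamine-only medium, PFKFB2 is widest in glucose + NH4Cl medium, and LDHB takes most of the lactate dehydrogenase bar in all 5 media. By counts without length, SLC2A3 averaged 50.55% of the 2 transporters in glutamine-only medium, so its rank there depends on length.

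Another 36 genes of these pathways, minor isoenzymes and side branches, were listed, and 22 passed the filter on low counts. Of these, 5 were called higher and 11 lower in glucose-only than in neither-nutrient medium, beside 39.9% and 37.9% of all genes, and 9 higher and 7 lower in glutamine-only than in neither-nutrient medium, beside 37% and 35.8%. Glutamine added to glucose gave 11 higher and 4 lower, beside 34.2% and 33.7%. Glucose added to glutamine gave 6 and 7, beside 32.6% and 33%, and NH4Cl added to glucose 3 and 2, beside 12.7% and 16.9%, counts near the background. In glucose + NH4Cl against glucose + glutamine medium 4 were higher and 10 lower, beside 31.2% and 33.4%. PGP averaged 14.1 ± 1.27 CPM in glucose + NH4Cl, 32.9 ± 2.21 in glucose + glutamine, 20.4 ± 0.842 in glutamine-only, 11.9 ± 0.549 in glucose-only and 36.9 ± 0.535 in neither-nutrient medium (SD, n = 3 each). PGP, a phosphatase that clears toxic side products of glycolysis, had a log2 change of 1.46 ± 0.07 for glutamine added to glucose and -1.62 ± 0.071 for glucose-only against neither-nutrient medium. SLC2A6 averaged 11.6 ± 2.15 CPM in glucose + NH4Cl, 23 ± 0.909 in glucose + glutamine, 13 ± 0.302 in glutamine-only, 4.93 ± 1.00 in glucose-only and 10.6 ± 2.32 in neither-nutrient medium. SLC2A6, a transporter of the same family found on lysosomes, had 2.22 ± 0.12 for glutamine and 1.24 ± 0.14 for NH4Cl added to glucose. ENO3, the muscle enolase, was lower with glutamine added to glucose (-0.95 ± 0.094) and higher in glucose-only than in neither-nutrient medium (1.13 ± 0.1). PGP, SLC2A6 and ENO3 were singled out after their values were seen.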

How the data were processed

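Poly(A) RNA of 15 libraries, 3 per medium, was prepared with a stranded kit, per the labels' protocols. The authors deposited raw counts per Ensembl gene. Per the submitters' processing notes, featureCounts, Subread 1.5.1 and HISAT2 2.1.0 were used with the build GRCh38.p12. What each did, whether counting used strand and how reads with several matches were handled was not given in the sources used here. Of 58395 identifiers, 58275 were found in GENCODE 29, as were all 31 members, whose exon lengths came from it. Promoter windows came from RefSeq (GRCh38.p14).

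Counts were fitted with edgeR 4.0.16 (R 4.3.3, limma 3.58.1): TMM factors, filterByExpr, a mean per medium, robust glmQLFit and glmQLFTest, two-sided, over 16889 genes, with Benjamini-Hochberg adjusted p under 0.05. The common biological coefficient of variation was 0.0221, with 10 residual degrees of freedom. The code was tested on simulated data. For each comparison the text gives up to 6 called members with the largest higher and up to 6 with the largest lower change, their isoenzymes, and the others by level, count or range. The members and lists were chosen with earlier results of these data known.

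Replicate numbers did not pair libraries: 30 pairs with equal number had a median residual correlation of 0 and 60 with different numbers -0.003. Within media, the 15 pairs of libraries had a chi-square of 1.231 to 2.462 per degree of freedom, so no library was a copy of another. Alternatives were library totals, DESeq2 1.42.0 size factors and its Wald test (local fit), the compared media alone, a replicate block, no low-count filter, a test against a 1.2-fold change, each library left out, and isoenzyme shares without length. Shares were compared with exact permutation tests.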

Additional observations from a re-analysis of the deposited data

Results flagged for a closer look

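The effect of glucose with glutamine present (glucose + glutamine against glutamine-only medium) differed from its effect without glutamine (glucose-only against neither-nutrient medium) for the 11 members below, by edgeR's interaction test over all genes. The difference of the log2 effects was 2.40 for LDHA, 2.13 for PGAM1, 1.91 for TPI1, 1.84 for PFKFB4, 1.68 for PKM and 1.49 for PGK1. It was -3.25 for H6PD, -2.31 for PFKFB2, -1.17 for HK2, -0.91 for SLC2A3 and -0.43 for PGLS. The largest adjusted p among them was 3.93e-09 in the edgeR fit. TMM factors and the share of the 10 most abundant genes set the neither-nutrient libraries apart, and their part in these differences was not tested. Each difference kept its sign with library totals.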

How the results depend on the processing

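The 75 changes given as the largest of a comparison, up to 6 in each direction, kept their direction under every alternative run, and 9 of them lost their call against a 1.2-fold change. Under library totals, 11 of all 183 member calls turned, which means a change of sign, whether or not the gene was still called. These are given beside the changes of PGM2, ENO2, RPE, PFKM, PFKFB3, TKT, GAPDH and SLC2A1. They also include PGM1 in glutamine-only against neither-nutrient and HK1 and GPI in glucose + glutamine against glutamine-only medium. Among them only PFKM, GPI and GAPDH were then called in the opposite direction. Another 7 calls were lost and 8 gained: the members at least 1.5-fold lower were 7 in place of 20 for glucose-only and 5 in place of 12 for glutamine-only against neither-nutrient medium, those higher were 8 in place of 5 for glutamine-only against neither-nutrient and 16 in place of 10 for glucose + glutamine against glutamine-only medium. Against a 1.2-fold change 51 calls were lost: those higher were 3 in place of 5 for glutamine-only against neither-nutrient medium, 13 in place of 23 for glucose + glutamine and 5 in place of 13 for glucose + NH4Cl against glucose-only medium, and those lower were 6 in place of 12 for glucose + glutamine against glutamine-only, 0 in place of 3 for glucose + NH4Cl against glucose-only and 12 in place of 23 for glucose + NH4Cl against glucose + glutamine medium. That test asks for more than the main one. With DESeq2's size factors 2 calls were lost, with its Wald test 4, with no low-count filter 9, and with the compared media alone 2, with 2 gained. The replicate number as a block lost, turned and gained 0 of 183 calls, so the 26 members lower in glucose-only than in neither-nutrient medium were again 26 with the block. HK2 in glucose-only against neither-nutrient medium had a log2 change of 0.09 (adjusted p = 0.112, edgeR) with no low-count filter.

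Among the shares, without length PFKFB3 differed by 1.51 percentage points in glucose + glutamine against glutamine-only medium (-1.97 with length) and PFKFB4 by -0.491 in glutamine-only against neither-nutrient medium (0.161 with length). Leaving out each library in turn changed the sign of 6 share differences, which ran from -0.459 to 0.113 for PFKL and -0.938 to 0.671 for ALDOC in glucose + NH4Cl against glucose-only, from -0.538 to 0.103 for PFKM in glucose-only against neither-nutrient, from -0.0871 to 1.39 for ALDOC and -0.233 to 0.753 for PFKFB4 in glutamine-only against neither-nutrient, and from -0.0612 to 0.921 for PGM2 in glucose + glutamine against glutamine-only medium. The cause of these changes was not tested. Depth limits PFKFB4 and ALDOC most, and 3 libraries per medium allow no exact p under 0.1.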
